A study of Drosophila melanogaster with 6 samples.

Results

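The genes described here are 9 components of epidermal growth factor receptor (EGFR) signalling in intestinal stem cells (ISCs) and enteroblasts (EBs) of the Drosophila midgut. They are the ligand genes vn, spi and Krn, the ligand-processing protease gene rho, the receptor gene Egfr, the nuclear effector gene pnt and the inhibitor genes aos, sty and kek1. They were taken by their symbols from the 15603 genes listed in the deposited expression values, and all 9 were found. RNA was sequenced from escargot-positive cells purified by FACS from midguts of 7-day-old female flies, with 1 library per condition and about 100 guts pooled for each. All 6 conditions carried the esgGal4ts driver, which acts in ISCs and EBs and is released by a shift to 29 °C. HttQ138 flies expressed an aggregation-prone polyglutamine form of human Huntingtin for 2 days and were set against w1118 flies with the driver alone. CncCRNAi+HttQ138 flies carried both transgenes for 2 days and were set against flies with CncCRNAi alone, directed at the Nrf2 homologue CncC. Rpn3RNAi flies, with a knockdown construct against a lid subunit of the proteasome, were kept at 29 °C for 4 days and set against attP2 flies, which carried the empty landing site. The genotype labels of both libraries of this pair name attP2, the site that holds the Rpn3RNAi construct. The 3 pairs share no library. They differ from each other in genotype, and the Rpn3RNAi pair also in time at 29 °C.

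EGFR signalling is one of the main routes by which the fly midgut tells its stem cells to divide. Spitz and Keren, the products of spi and Krn, are made as membrane-bound precursors and are released by Rhomboid proteases, whereas Vein, the product of vn, is secreted without that step and is known in this tissue as a signal from the visceral muscle. The receptor acts through Ras, Raf, MEK and ERK on the transcription factors Pointed and Yan, and genes switched on by the pathway, among them aos, sty and kek1, encode inhibitors that damp it.

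Values are FPKM, that is, fragments per kilobase of transcript, scaled to the mapped fragments of each library. The steps between low FPKM values placed the depth at an estimated 2760000 (Rpn3RNAi) to 3620000 (CncCRNAi+HttQ138) fragments, so that 1 fragment per kilobase was worth 0.276 to 0.362 FPKM. The sort gave the fewest cells for HttQ138, 16611, and the most for attP2, 62921. With no replicates, no difference has a replicate check and no test within a pair was possible. Each level is given with its 95% Poisson interval and each ratio with a 95% exact binomial (Clopper-Pearson) interval, both on estimated fragments and both covering counting error only. esg, which marks the sorted cells, lay between 287 and 346 FPKM, and the 9 ISC and EB markers summed to 1632 to 2260 FPKM. Dl, which marks ISCs, was low throughout, between 0.803 and 2.34 FPKM. Rpn3 stood at 63.2 FPKM in Rpn3RNAi and 77.1 in attP2. It stood at 71.0 FPKM in HttQ138, 45.5 in w1118, 33.1 in CncCRNAi+HttQ138 and 37.7 in CncCRNAi. Rpn3RNAi thus lay below its own control but above w1118 and both libraries labelled CncCRNAi, so the Rpn3 level alone does not show a strong knockdown. cnc was no lower under the CncCRNAi label, with 75.6 FPKM in CncCRNAi+HttQ138 against 60.7 in HttQ138, and 64.4 in CncCRNAi alone against 63.8 in w1118. Gene-level FPKM merges the isoforms of cnc with any reads of the construct, so CncCRNAi and CncCRNAi+HttQ138 stand here and below for the libraries so labelled, a label that the cnc level does not bear out.

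In all, vn was the 1 gene of the 9 that was several-fold higher with HttQ138, and it was so in both HttQ138 pairs but not with Rpn3RNAi. Of all genes tested, 3.58% were at least 3-fold higher in HttQ138 against w1118 and 1.19% in CncCRNAi+HttQ138 against CncCRNAi. The size of the vn difference depended on the control, with HttQ138 1.91-fold higher when set against attP2. spi, Egfr and sty were lower in all 3 stressed libraries than in their own controls, with moderate ratios that in HttQ138 depended on the control chosen. pnt and aos were lower by point estimate in all 3, and 25.4% of all genes were lower in all 3 pairs. Krn and rho differed more between backgrounds than between stressed and control libraries, and kek1 moved in opposite directions in different pairs.

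**Figure D1:**
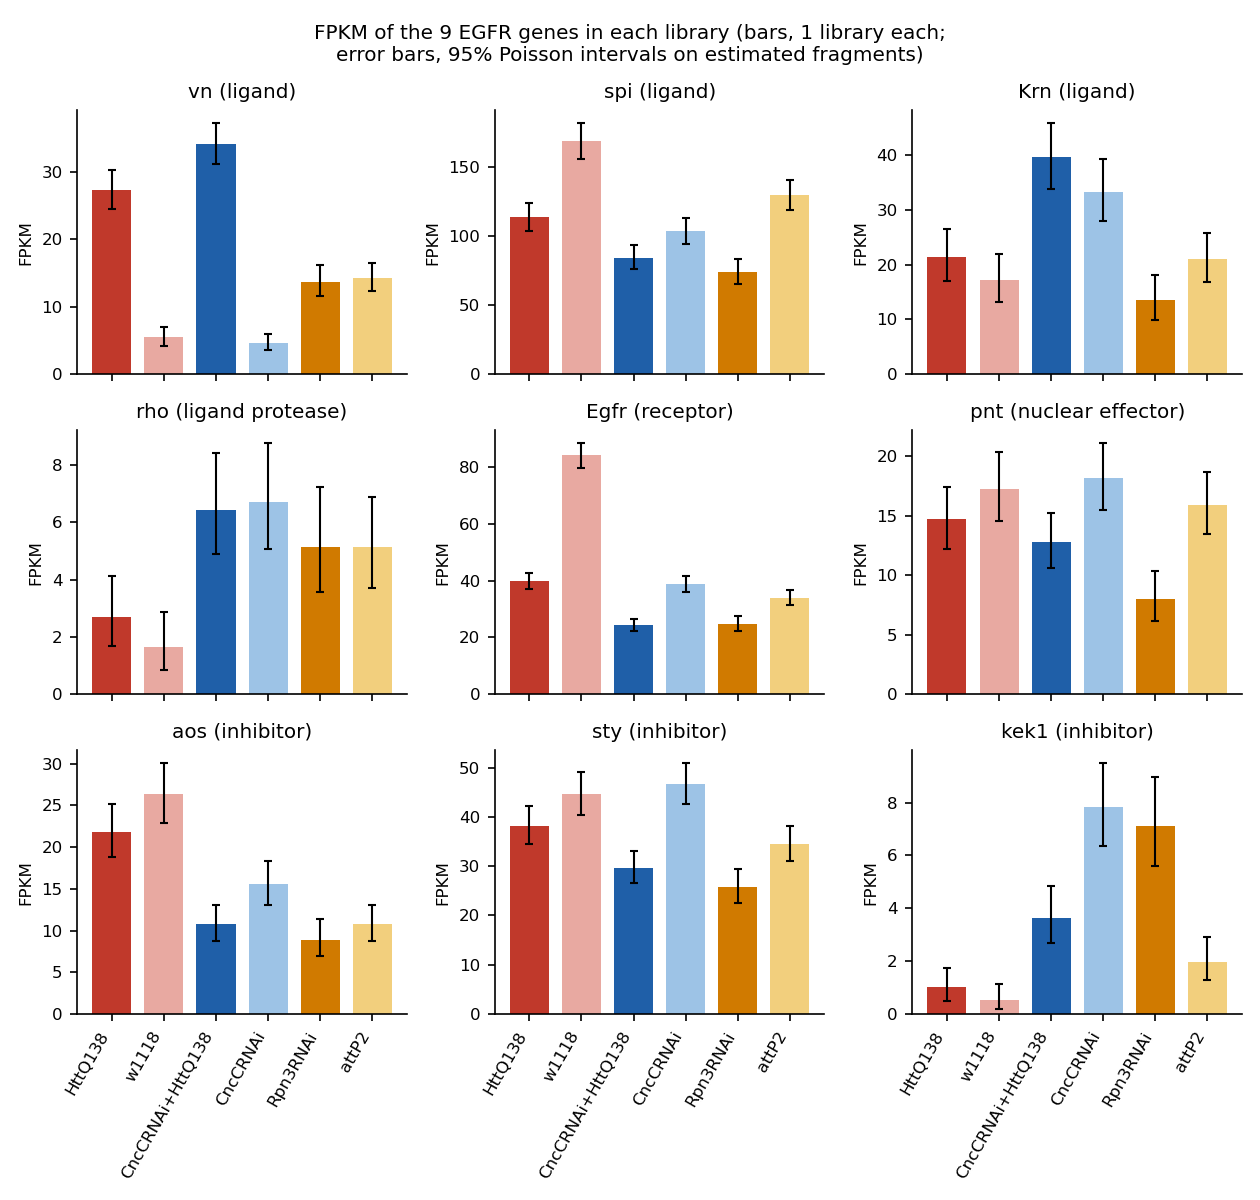
FPKM of each of the 9 genes (y axis, a separate scale per gene) in the 6 libraries, each stressed library left of its own control; bars are single libraries and error bars are 95% Poisson intervals on estimated fragments. vn stands at 27.3 and 34.1 FPKM in the libraries with HttQ138 and at 4.70 to 14.3 in the other 4, and Egfr is highest in w1118 at 84.2 FPKM.

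Among the ligands, vn (FBgn0003984, chromosome arm 3L) encodes Vein, a secreted neuregulin-like protein. It stood at 27.3 FPKM (24.5 to 30.3) in HttQ138 and 5.47 (4.20 to 6.94) in w1118. In the CncCRNAi background it stood at 34.1 FPKM (31.1 to 37.2) in CncCRNAi+HttQ138 and 4.70 (3.62 to 6.02) in CncCRNAi. Rpn3RNAi had 13.7 FPKM (11.6 to 16.1) and attP2 14.3 (12.4 to 16.5). The libraries fell into 3 levels: the HttQ138 libraries at the top, Rpn3RNAi and attP2 with overlapping intervals in the middle, and w1118 and CncCRNAi with overlapping intervals at the bottom. vn was 4.99-fold (3.84 to 6.64) higher in HttQ138 than in w1118 and 7.25-fold (5.56 to 9.57) higher in CncCRNAi+HttQ138 than in CncCRNAi. The ratio of Rpn3RNAi over attP2 was 0.959 (0.768 to 1.19); a lower or higher level within those bounds would not be detectable at this depth. These ratios rest on an estimated 348 fragments in HttQ138 and 65 in w1118, and on 482 in CncCRNAi+HttQ138 and 63 in CncCRNAi.

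The size of the vn difference depended on the control. attP2 held 2.62 times (1.98 to 3.54) the vn of w1118 and 3.05 times (2.28 to 4.11) that of CncCRNAi, and these are all libraries without stress. Set against attP2 in place of w1118, HttQ138 was 1.91-fold higher in vn, under the 3-fold threshold. Both HttQ138 libraries still lay above all 4 libraries without HttQ138, a pattern that 6.13% of 6376 genes showed.

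With the thresholds of 3-fold and 10 FPKM in the higher library, 7 of the 9 genes could be counted in each pair, since rho and kek1 stayed under 10 FPKM in every library. vn alone passed as higher in HttQ138 against w1118, where 3.58% of all genes tested did, and in CncCRNAi+HttQ138 against CncCRNAi, where 1.19% did. None of the 7 passed as higher in Rpn3RNAi against attP2, where 6.94% of genes did. None passed as 3-fold lower, against 1.73% of genes in HttQ138, 1.35% in CncCRNAi+HttQ138 and 1.86% in Rpn3RNAi. At 2-fold, vn was again the 1 gene higher in each HttQ138 pair (6.26% of genes in HttQ138 against w1118, 2.3% in CncCRNAi+HttQ138 against CncCRNAi) and Egfr was the 1 gene lower, in HttQ138 against w1118 (5.81% of genes). Under median-of-ratios scaling of the libraries that Egfr ratio was 0.503, short of 2-fold. None of the 7 was 2-fold lower in CncCRNAi+HttQ138 (3.49% of genes), and none was 2-fold higher or lower in Rpn3RNAi (10.3% and 5.93% of genes). Of all genes, 23 were at least 3-fold higher in both HttQ138 pairs, and 19 of these, vn among them, were not 2-fold higher in Rpn3RNAi.

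**Figure D2:**
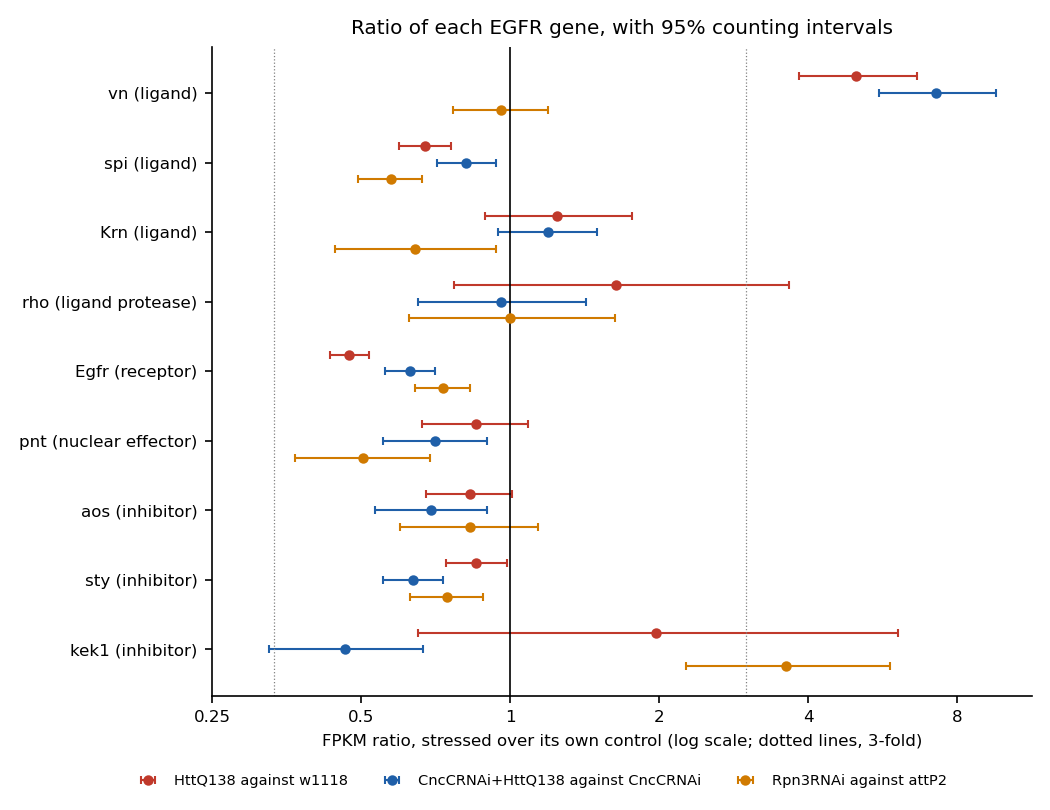
Ratio of FPKM of each stressed library over its own control (x axis, log scale) for the 9 genes, with 95% counting intervals; the solid line marks a ratio of 1 and dotted lines mark 3-fold. The vn ratios of the HttQ138 pairs, 4.99 and 7.25, lie beyond the 3-fold line, while every point of spi, Egfr, pnt, aos and sty lies between 0.473 and 0.855.

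spi (FBgn0005672, arm 2L) encodes Spitz, the TGF-alpha-like ligand, and had the highest FPKM of the 9 genes in every library. It stood at 113 FPKM (103 to 124) in HttQ138 and 168 (156 to 182) in w1118. CncCRNAi+HttQ138 had 84.3 FPKM (76.2 to 93.0) and CncCRNAi 103 (93.9 to 113). Rpn3RNAi had 74.1 FPKM (65.3 to 83.5), against 129 (119 to 140) in attP2. spi was lower in each stressed library than in its control, with ratios of 0.674 (0.598 to 0.759) in HttQ138, 0.816 (0.712 to 0.937) in CncCRNAi+HttQ138 and 0.574 (0.493 to 0.664) in Rpn3RNAi. Across pairs the levels overlapped, since HttQ138 held 1.10 times the spi of CncCRNAi.

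Krn (FBgn0052179, arm 3L) encodes Keren, a second TGF-alpha-like ligand. It stood at 21.4 FPKM (17.1 to 26.5) in HttQ138 and 17.2 (13.2 to 21.9) in w1118, a ratio of 1.24 (0.891 to 1.76). CncCRNAi+HttQ138 had 39.6 FPKM (33.8 to 45.8) and CncCRNAi 33.2 (27.9 to 39.3), a ratio of 1.19 (0.944 to 1.50). Rpn3RNAi had 13.5 FPKM (9.88 to 18.1) and attP2 21.0 (16.8 to 25.7), a ratio of 0.641 (0.442 to 0.937). Krn did not differ detectably with HttQ138 at this depth, and its lower value with Rpn3RNAi had an interval that included 1 under each of 3 other scalings of the libraries (ratios 0.700 to 0.722). The larger difference was between backgrounds: both libraries labelled CncCRNAi lay above the other 4, as 14.6% of genes did, and CncCRNAi held 1.93 times (1.43 to 2.66) the Krn of w1118.

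The make-up of the ligand RNA differed in both HttQ138 pairs. vn, spi, Krn and grk, the gene of the germline ligand Gurken, summed to 165 FPKM in HttQ138 and 193 in w1118, to 161 in CncCRNAi+HttQ138 and 142 in CncCRNAi, and to 103 in Rpn3RNAi and 167 in attP2. vn made up 16.5% of that sum in HttQ138 against 2.84% in w1118, and 21.2% in CncCRNAi+HttQ138 against 3.31% in CncCRNAi. In Rpn3RNAi it made up 13.3% of a smaller sum, against 8.57% in attP2, with spi at 0.574 and vn at 0.959 times its control. spi was 4.15 times vn in HttQ138 and 30.8 times vn in w1118, and 2.47 times vn in CncCRNAi+HttQ138 and 22.0 times vn in CncCRNAi. grk itself lay between 0.556 and 2.98 FPKM.

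**Figure D3:**
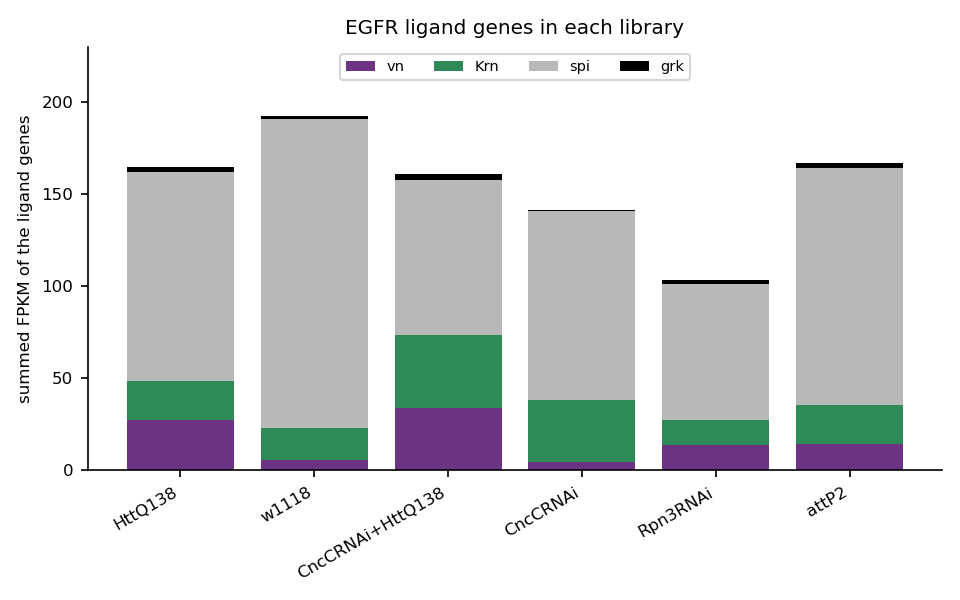
Summed FPKM of the ligand genes vn, Krn, spi and grk (y axis) in the 6 libraries, stacked by gene, each stressed library left of its control. spi fills the largest part of every bar, and the vn part makes up 16.5% and 21.2% of the bars of HttQ138 and CncCRNAi+HttQ138 against 2.84% and 3.31% in w1118 and CncCRNAi.

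Because vn is known from visceral muscle, and sorted cells can carry RNA of other cells, markers of other cell types were summed in each library. A difference in level in such bulk RNA cannot be assigned to more cells of a type or to more RNA per cell. The 14 visceral muscle markers, all matched, summed to 428 FPKM in HttQ138 and 406 in w1118, 415 in CncCRNAi+HttQ138 and 414 in CncCRNAi, and 348 in Rpn3RNAi and 512 in attP2. By gene, 9 of the 14 were higher in HttQ138, 7 in CncCRNAi+HttQ138 and 9 in Rpn3RNAi, each against its control. Tm1 alone made up 292 to 466 FPKM of the sums, and how and Mef2 also lay above 9 FPKM in every library. In HttQ138 and w1118, Tm1 stood at 373 and 374 FPKM, how at 9.32 and 9.44, and Mef2 at 16.0 and 17.4. The other 11, which are sarcomere genes and were set apart after their values were seen, summed to 30.4 FPKM in HttQ138 and 5.35 in w1118, and to 5.33 in CncCRNAi+HttQ138 and 4.92 in CncCRNAi. In Rpn3RNAi they summed to 26.0 FPKM, against 11.8 in attP2. Of the sarcomere genes, up and sls were not higher in HttQ138 than in w1118. In HttQ138 the sarcomere sum and vn were both higher than in w1118. In CncCRNAi+HttQ138 vn was 7.25-fold higher than in CncCRNAi and the sarcomere sum was 5.33 against 4.92 FPKM, with 1 and 4 of the 11 genes at 0. The part of muscle RNA in the vn difference was not tested in either pair. Mhc, the muscle myosin, was low in all libraries, at 0.937 FPKM in HttQ138 and 0.350 in w1118. It stood at 0.252 FPKM in CncCRNAi+HttQ138 and 0.446 in CncCRNAi, and at 1.05 in Rpn3RNAi and 0.596 in attP2.

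Enterocyte markers were higher in HttQ138 and Rpn3RNAi than in their controls, but not in CncCRNAi+HttQ138. The 11 markers, all matched and all above 0 in every library, summed to 1885 FPKM in HttQ138 and 581 in w1118, 910 in CncCRNAi+HttQ138 and 969 in CncCRNAi, and 9349 in Rpn3RNAi and 760 in attP2. By gene, 10 of the 11 were higher in HttQ138, 5 in CncCRNAi+HttQ138 and 8 in Rpn3RNAi, each against its control. The Rpn3RNAi sum was carried by digestive enzyme genes such as alphaTry, at 3867 FPKM in Rpn3RNAi and 135 in attP2, while Myo31DF, Tsp2A and the septate junction gene Ssk were lower there, Myo31DF at 135 FPKM in Rpn3RNAi and 182 in attP2. The 10 enteroendocrine markers summed to 365 FPKM in HttQ138 and 504 in w1118, 96.9 in CncCRNAi+HttQ138 and 257 in CncCRNAi, and 260 in Rpn3RNAi and 148 in attP2, with the identity factor pros below 1 FPKM throughout. The lower sum in HttQ138 came from NPF, at 167 FPKM in HttQ138 and 396 in w1118, and Tk, whereas 7 of the 10 were higher, among them AstC at 61.3 FPKM in HttQ138 and 17.9 in w1118. The 6 trachea markers summed to 53.4 FPKM in HttQ138 and 44.8 in w1118, and to 64.4 in CncCRNAi+HttQ138 and 40.7 in CncCRNAi. In Rpn3RNAi they summed to 39.0 FPKM, against 46.0 in attP2, and vvl was at 0 in all libraries. The 7 matched hemocyte markers summed to 12.0 FPKM in HttQ138 and 6.25 in w1118, and to 6.71 in CncCRNAi+HttQ138 and 3.53 in CncCRNAi. In Rpn3RNAi they summed to 10.1 FPKM, against 5.93 in attP2. Of these, srp was the highest in every library, at 2.59 to 9.49 FPKM, and Hml was at most 0.530 FPKM. The part of these cell types in the differences of vn, spi, Egfr, pnt and the inhibitors was not tested.

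**Figure D4:**
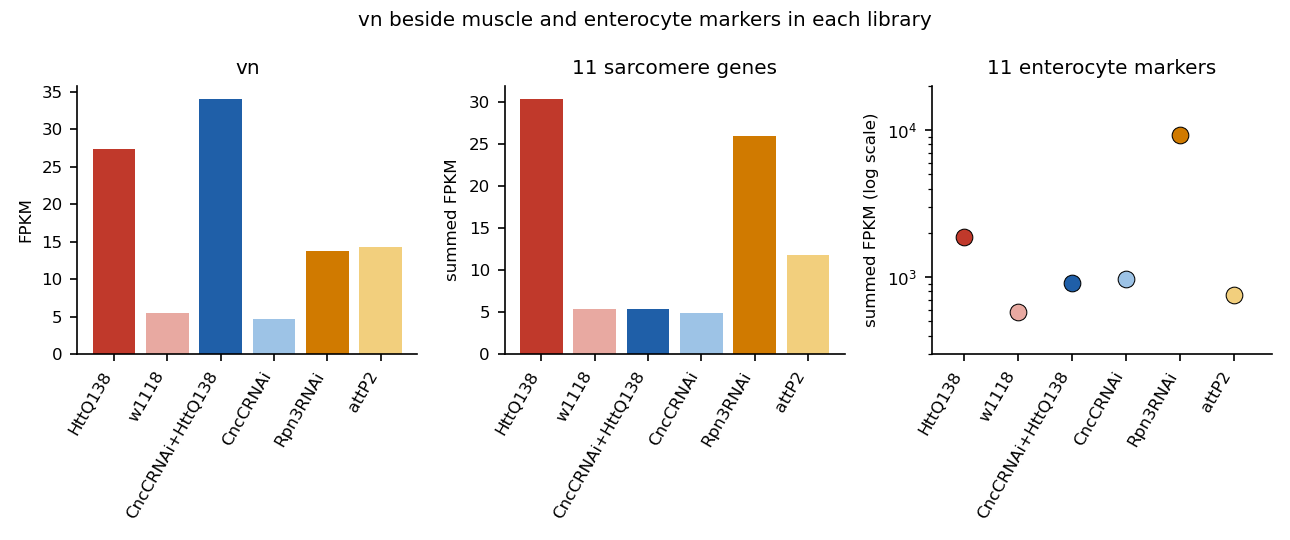
vn (FPKM), the sum of 11 sarcomere genes (FPKM) and the sum of 11 enterocyte markers (FPKM, log scale) in each library; bars and points are single libraries, each stressed library left of its control. vn and the sarcomere sum are both high in HttQ138, and in CncCRNAi+HttQ138 vn stands at 34.1 FPKM with a sarcomere sum of 5.33 FPKM. The sarcomere genes were set apart after their values were seen. Tm1, how and Mef2 of the visceral muscle list are not drawn and were not higher in HttQ138 than in w1118.

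rho (FBgn0004635, arm 3L) encodes Rhomboid, the intramembrane protease that releases Spitz, and was among the lowest of the 9 genes. It stood at 2.70 FPKM (1.67 to 4.14) in HttQ138 and 1.64 (0.852 to 2.88) in w1118, a ratio of 1.64 (0.771 to 3.66). CncCRNAi+HttQ138 had 6.44 FPKM (4.91 to 8.44) and CncCRNAi 6.71 (5.08 to 8.78), a ratio of 0.959 (0.652 to 1.42). Rpn3RNAi had 5.15 FPKM (3.58 to 7.23) and attP2 5.16 (3.70 to 6.88), a ratio of 0.999 (0.626 to 1.63). No pair differed in rho beyond counting error, and with 12 fragments in w1118 a level 3-fold higher in HttQ138 would still lie inside the interval. CncCRNAi held 4.08 times (2.16 to 8.39) and attP2 3.14 times (1.60 to 6.45) the rho of w1118. The related gene rho-4 was far higher than rho, at 80.7 to 112 FPKM, while the paralogs ru and stet stayed below 1 FPKM, and S, whose product Star moves the Spitz precursor to the protease, lay between 22.4 and 41.3 FPKM.

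Egfr (FBgn0003731, arm 2R) encodes the receptor and was lower in every stressed library than in its own control. It stood at 39.9 FPKM (37.0 to 42.9) in HttQ138 and 84.2 (79.9 to 88.7) in w1118. CncCRNAi+HttQ138 had 24.4 FPKM (22.2 to 26.6) and CncCRNAi 38.8 (36.0 to 41.7). Rpn3RNAi had 24.9 FPKM (22.4 to 27.5) and attP2 34.1 (31.5 to 36.7). The ratios were 0.473 (0.432 to 0.518) for HttQ138, 0.628 (0.559 to 0.705) for CncCRNAi+HttQ138 and 0.730 (0.642 to 0.830) for Rpn3RNAi. On the scale of log2(FPKM + 1) these are differences of -1.06, -0.65 and -0.44. w1118 stood apart from the other unstressed libraries: CncCRNAi held 0.461 times (0.421 to 0.504) and attP2 0.405 times (0.368 to 0.444) its Egfr. Against those 2 libraries in place of w1118, Egfr in HttQ138 gave ratios of 1.03 and 1.17, so the direction in that pair rested on the w1118 library. The order of levels put w1118 first, then HttQ138, CncCRNAi and attP2, then Rpn3RNAi and CncCRNAi+HttQ138, which overlapped in their intervals.

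Relative to the receptor, the ligand genes summed to 4.14 times the Egfr FPKM in HttQ138 and 2.29 times in w1118, to 6.60 times in CncCRNAi+HttQ138 and 3.65 times in CncCRNAi, and to 4.14 times in Rpn3RNAi and 4.90 times in attP2. The HttQ138 ratio was above that of w1118 and CncCRNAi and below that of attP2, so its direction rested on the control, as for Egfr itself.

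pnt (FBgn0003118, arm 3R) encodes Pointed, the ETS factor that activates target genes of the pathway. It stood at 14.7 FPKM (12.2 to 17.5) in HttQ138 and 17.3 (14.5 to 20.4) in w1118, a ratio of 0.852 (0.663 to 1.09). CncCRNAi+HttQ138 had 12.8 FPKM (10.6 to 15.3) and CncCRNAi 18.2 (15.5 to 21.1), a ratio of 0.704 (0.554 to 0.896). Rpn3RNAi had 7.99 FPKM (6.13 to 10.4) and attP2 15.9 (13.4 to 18.6), a ratio of 0.504 (0.369 to 0.690). All 3 stressed libraries lay below all 3 unstressed ones in pnt, the single gene of the 7 counted to do so, while 11.7% of all genes did. The unstressed libraries were close together in pnt, within a factor of 1.15, whereas they spanned a factor of 2.47 in Egfr. The gene has 4 annotated transcripts, which FPKM per gene does not separate.

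Among the inhibitors, aos (FBgn0004569, arm 3L) encodes Argos, a secreted protein that binds Spitz. It stood at 21.8 FPKM (18.8 to 25.1) in HttQ138 and 26.4 (22.9 to 30.1) in w1118, a ratio of 0.829 (0.678 to 1.01). CncCRNAi+HttQ138 had 10.8 FPKM (8.79 to 13.0) and CncCRNAi 15.6 (13.1 to 18.3), a ratio of 0.692 (0.533 to 0.899). Rpn3RNAi had 8.91 FPKM (6.92 to 11.4) and attP2 10.7 (8.81 to 13.1), a ratio of 0.829 (0.599 to 1.14). Only the CncCRNAi pair differed beyond counting error, and aos differed more between backgrounds: the HttQ138 and w1118 libraries both lay above the other 4, as they did for Egfr and for 4.6% of genes, and attP2 held 0.408 times (0.321 to 0.521) the aos of w1118.

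sty (FBgn0014388, arm 3L) encodes Sprouty, an intracellular inhibitor of receptor tyrosine kinase signalling, and was the least variable of the 9 genes, with 1.82 times between its lowest and highest library. It stood at 38.1 FPKM (34.4 to 42.1) in HttQ138 and 44.6 (40.4 to 49.0) in w1118. CncCRNAi+HttQ138 had 29.7 FPKM (26.6 to 33.1) and CncCRNAi 46.7 (42.7 to 51.0). Rpn3RNAi had 25.7 FPKM (22.4 to 29.3) and attP2 34.5 (31.1 to 38.2). sty was lower in all 3 pairs, with ratios of 0.855 (0.743 to 0.984) in HttQ138, 0.636 (0.552 to 0.732) in CncCRNAi+HttQ138 and 0.745 (0.628 to 0.882) in Rpn3RNAi. The interval of the HttQ138 pair included 1 under each of 3 other scalings (ratios 0.881 to 0.909), and HttQ138 held 1.11 times the sty of attP2.

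kek1 (FBgn0015399, arm 2L) encodes Kekkon, a transmembrane protein that binds and inhibits the receptor. It stood at 1.03 FPKM (0.514 to 1.74) in HttQ138 and 0.521 (0.195 to 1.15) in w1118, a ratio of 1.98 (0.651 to 6.09) on 12 and 6 fragments. CncCRNAi+HttQ138 had 3.64 FPKM (2.71 to 4.83) and CncCRNAi 7.84 (6.35 to 9.51), a ratio of 0.464 (0.326 to 0.666). Rpn3RNAi had 7.11 FPKM (5.60 to 8.98) and attP2 1.97 (1.30 to 2.91), a ratio of 3.61 (2.27 to 5.86). kek1 was thus lower in CncCRNAi+HttQ138 and higher in Rpn3RNAi than in their controls, both beyond counting error, while its value in the HttQ138 pair was not resolved at this depth. Without the minimum of 10 FPKM it would count as 3-fold higher in Rpn3RNAi. It also had the widest spread of the 9 genes among libraries without stress, with 15.0 times (6.53 to 41.1) as much in CncCRNAi as in w1118.

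Counted over the 7 genes of at least 10 FPKM, the counting interval lay above 1 for vn alone in each HttQ138 pair, where it did so for 19.5% of genes in HttQ138 and 12.8% in CncCRNAi+HttQ138, and for none in Rpn3RNAi, where it did so for 19.8%. The interval lay below 1 for spi, Egfr and sty in HttQ138 (28.5% of genes), for these 3 with pnt and aos in CncCRNAi+HttQ138 (29% of genes), and for the same 3 with Krn and pnt in Rpn3RNAi (32.1% of genes). A lower point estimate in all 3 pairs was seen in 5 of the 7, namely spi, Egfr, sty, pnt and aos, and in 25.4% of all genes. An interval below 1 in all 3 pairs was seen in spi, Egfr and sty, and in 6.2% of genes. For sty this did not hold under other scalings in the HttQ138 pair. None of the 7 was higher in all 3 pairs, against 8.89% of genes, and none had an interval above 1 in all 3, against 1.8% of genes.

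The wider pathway was read from a list of 36 genes that includes the 9, with adaptors, the Ras to ERK cascade, further nuclear factors and inhibitors. Its median log2 ratio, over genes with a mean of at least 1 FPKM, was -0.14 in HttQ138 against w1118 (13 genes higher and 19 lower), against -0.07 over all genes. In CncCRNAi+HttQ138 against CncCRNAi it was -0.25 (10 higher and 23 lower), against -0.14 over all genes. In Rpn3RNAi against attP2 it was -0.21 (9 higher and 24 lower), against -0.03 over all genes. The share of genes that were lower was 59.4%, 69.7% and 72.7% in the list for these 3 pairs, against 55.7%, 63.9% and 52.3% over all genes. Set against w1118 in place of attP2, the median of Rpn3RNAi was 0.02, so its sign rested on the attP2 library. Under the 3 other scalings, which rescale all genes of a library alike, the median was -0.08 to -0.04 in Rpn3RNAi, -0.10 to -0.05 in HttQ138 and -0.25 to -0.17 in CncCRNAi+HttQ138.

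**Figure D5:**
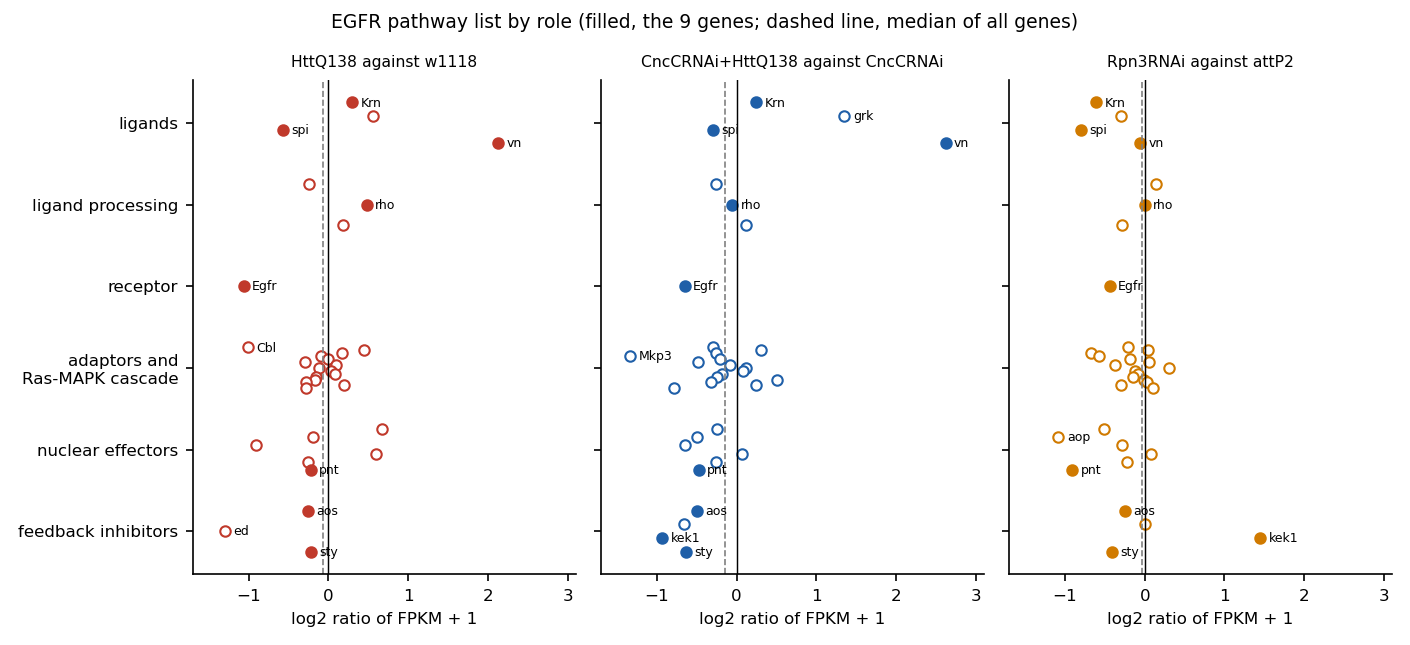
Log2 ratio of FPKM + 1 (x axis) of the pathway genes with a mean of at least 1 FPKM, by role (y axis), in the 3 pairs; each point is a gene, filled for the 9 genes described and open for the others, and the dashed line is the median of all genes. vn lies furthest to the right in the HttQ138 pairs, at 2.13 and 2.62, and kek1, which is under the minimum in the HttQ138 pair, lies furthest to the right in the Rpn3RNAi pair at 1.45.

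Of the 27 genes of the list that could be counted at 2-fold with 10 FPKM in HttQ138 against w1118, 1 was higher, vn, where 6.26% of all genes were, and 3 were lower, Egfr, Cbl and ed, where 5.81% of all genes were. Cbl, which encodes a ubiquitin ligase that drives receptor turnover, stood at 82.6 FPKM in HttQ138 and 167 in w1118, a ratio of 0.495 (0.452 to 0.541). The 3 other scalings raised ratios in this pair by 0.04 to 0.09 on the log2 scale, which takes Cbl short of 2-fold. Egfr fell short of 2-fold under median-of-ratios scaling alone (0.503). ed, which encodes the cell adhesion protein Echinoid that antagonises EGFR signalling, stood at 8.28 FPKM in HttQ138 and 21.7 in w1118, a ratio of 0.381 (0.310 to 0.469). As with Egfr, w1118 was the highest of the 6 libraries for both, the others lying between 64.2 and 98.6 FPKM for Cbl and between 8.28 and 15.3 FPKM for ed. In ed, unlike Egfr, both HttQ138 libraries (8.28 and 9.39 FPKM) lay below the 4 without HttQ138, of which attP2 was lowest at 9.78. This pattern was seen in 12.6% of all genes. The ed ratio of CncCRNAi+HttQ138 over CncCRNAi was 0.612 (0.501 to 0.747).

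In CncCRNAi+HttQ138 against CncCRNAi, vn was higher (2.3% of all genes) and 1 of 29 was lower (3.49% of all genes). This was Mkp3, the gene of a phosphatase that inactivates ERK, at 18.3 FPKM in CncCRNAi+HttQ138 and 47.5 in CncCRNAi, a ratio of 0.385 (0.310 to 0.475), with CncCRNAi above the other 5 libraries (13.8 to 20.9 FPKM). In Rpn3RNAi against attP2, none was higher (10.3% of all genes) and 1 of 26 was lower (5.93% of all genes). This was aop, which encodes Yan, the ETS repressor that opposes Pointed, at 5.05 FPKM in Rpn3RNAi and 11.8 in attP2, a ratio of 0.428 (0.309 to 0.590). pnt and aop, activator and repressor, were both lowest of the 6 libraries in Rpn3RNAi. Over the list, 11 of 29 genes were lower in all 3 pairs, against 25.4% of all genes, among them the nuclear effectors pnt, aop, cic and gro, and 2, edl and the MEK gene Dsor1, were higher in all 3, against 8.89% of all genes. These counts are of point estimates, and for edl and Dsor1 the interval lay above 1 in HttQ138 against w1118 alone. The ERK gene rl was listed at 0 in all libraries and gave no value.

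The genes whose profiles over the 6 libraries were nearest to vn, by Euclidean distance between centred log2(FPKM + 1) values among 6375 genes, were Ucp4B (distance 1.08), CG31777 (1.14), CG5853 (1.30), CG15922 (1.32) and alpha-Est1 (1.33). Ucp4B, a mitochondrial carrier gene, stood at 15.8 FPKM in HttQ138 and 5.85 in w1118, at 12.3 in CncCRNAi+HttQ138 and 3.09 in CncCRNAi, and at 9.11 in Rpn3RNAi and 8.25 in attP2. It shared the 3 levels of vn with a smaller range. For Egfr the nearest were Atet (0.190), CG14626 (0.312), CG17124 (0.414), CAHbeta (0.425) and CG32264 (0.440). Atet, an ABC transporter gene, stood at 7.97 FPKM in HttQ138 and 19.1 in w1118, at 5.13 in CncCRNAi+HttQ138 and 7.56 in CncCRNAi, and at 5.36 in Rpn3RNAi and 7.66 in attP2. The distances to Egfr were shorter than those to vn, but this distance is not scaled to the range of a gene. The range was wider for vn, 7.25 times between its lowest and highest library, against 3.46 times for Egfr. By Pearson correlation over the 6 libraries, the genes named for vn had r of 0.841 to 0.955 and those for Egfr 0.951 to 0.991, so the 2 ranges overlapped.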

How the data were processed

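Paired-end 150 bp MiSeq reads of 6 libraries, 1 per condition, were mapped by the authors with the Tuxedo suite to the Drosophila genome, which they give as release 5.75. Tool versions are not given in the sources used here. The deposited values are FPKM per gene and were used as they stand. Of the 15603 identifiers, 95.7% were found in Ensembl annotation 115 (genome release 6), which supplied symbols, transcript lengths and chromosome arms, but no coordinates. Depth was recovered from the steps of low FPKM values of single-transcript genes after reducing lengths by 150 nucleotides, which left 82.6% to 86.5% of them within 0.1 of a whole fragment. The method was tested on simulated data. Fragments of each gene were then estimated from its shortest transcript.

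Each stressed library was compared with its own control, with thresholds of 3-fold and 10 FPKM as in the study, a threshold of 2-fold beside it, and a pseudocount of 1 FPKM for log2 ratios. Pathway genes outside the 9 were named where they passed 2-fold with 10 FPKM, at most 3 per pair. Those named beside counts of the list, and rho-4, ru, stet, S and grk, were chosen after their values were seen. The nearest 5 profiles are named for vn and Egfr. The 9 genes, the pathway list and the marker lists were chosen with earlier results of these data known. The other scalings were equal FPKM sums, equal sums without small RNAs, and median-of-ratios factors. PPO1, of the hemocyte list, was not matched. Python 3.11.15, pandas 2.3.3 and scipy 1.17.1 were used.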

Additional observations from a re-analysis of the deposited data

Results flagged for a closer look

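For 2 of the genes, the ratio of stressed over control lay on opposite sides of 1 in the HttQ138 pairs. rho stood at 1.64 in HttQ138 over w1118 and at 0.959 in CncCRNAi+HttQ138 over CncCRNAi, both with intervals that include 1. Under median-of-ratios scaling both rho ratios were above 1 (1.74 and 1.02). kek1 stood at 1.98 in HttQ138 over w1118 and at 0.464 in CncCRNAi+HttQ138 over CncCRNAi. With 1 library per condition the differences between the pairs were not tested, and both genes stayed under 10 FPKM in every library.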

How the results depend on the processing

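No paired analysis was possible because the labels give no replicate numbers and each comparison holds 1 stressed and 1 control library; a fit that pools the different stresses over the 3 pairs was not run. The count of genes at least 3-fold higher in HttQ138 was 0 with attP2 as the control (vn at 1.91-fold), and the count 3-fold lower was 1 (Egfr) at a threshold of 2-fold. In Rpn3RNAi the count higher was 1 (kek1) without the minimum FPKM, and the count lower was 1 (Egfr, at 0.296) with w1118 as the control. With w1118 as the control the pathway median of Rpn3RNAi was 0.018, the opposite sign. In HttQ138, spi stood at 1.10 and Egfr at 1.03 against CncCRNAi, and Egfr at 1.17 and sty at 1.11 against attP2, each on the other side of 1. All of these came with another control, another threshold or no minimum. With the own control of each pair, the 3 other scalings changed none of the 3-fold counts. They also kept the sign of the pathway medians and the side of 1 of the spi, Egfr and sty ratios in HttQ138. At 2-fold, Egfr in HttQ138 over w1118 fell short of the threshold under median-of-ratios scaling (0.503). Ratios that changed side of 1 with scaling had intervals that include 1 throughout. In Rpn3RNAi against attP2, vn went from 0.959 to between 1.05 and 1.08, and rho from 0.999 to between 1.09 and 1.12, under the 3 scalings. rho in CncCRNAi+HttQ138 stood at 1.02 under median-of-ratios scaling. The scalings raised ratios in Rpn3RNAi against attP2 by 0.13 to 0.17 on the log2 scale. Krn in CncCRNAi+HttQ138 had an interval above 1 under median-of-ratios scaling alone (1.27, 1.00 to 1.59). Using full transcript lengths changed no side of 1 for any interval. Depth limits rho and kek1 most, with 12 and 6 fragments in w1118.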
